A study of Sus scrofa with 12 samples.

Results

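The regions described here carried a C/EBP-β peak summit in each of the 3 endometrium libraries from day 15 of pregnancy and in none of the 3 from day 12. They were chosen by the presence of summits in these lists, after joining the summits of all 6 libraries on chromosomes 1 to 18 and X wherever consecutive summits lay within 200 bp. This gave 892 such regions among 98994 joined regions (0.901%). The reverse pattern, with summits in each day 12 library and in no day 15 library, was found in 138 regions (0.139%). With lists of equal length the order turned, to 142 day 15-only and 420 day 12-only regions. These counts describe the lists and no test was made of them. An end of a protein-coding gene lay within 2 kb of 649 of the day 15-only regions, called near-gene-end regions below. The other 243 are called distal.

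The samples were endometrial tissues of Sus scrofa, taken on day 15 (3 ChIP libraries) and on day 12 (3 ChIP libraries). The antibody was against C/EBP-beta, and both groups were pregnant. No non-pregnant tissue was used here. Of the 6 input samples no data were used here. The labels give no breed and no age, and they do not say whether the replicates came from separate animals. Whole tissue was fixed, so a binding site present in fewer cells cannot be told apart from one bound less often in every cell.

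C/EBP-β, the product of CEBPB, is a basic leucine zipper transcription factor that binds DNA as a dimer with itself or with related factors. It responds to hormones, cyclic AMP and cytokines, and in mouse and human uterus it takes part in the stromal change that prepares for implantation. In the pig, embryos elongate and secrete oestrogen at the earlier of these stages and attach to the uterine epithelium while secreting interferons at the later one. A ChIP summit is the point of highest read pile-up within a called peak. It does not show that the factor touches the DNA itself, nor that a neighbouring gene is controlled from there. Without a genome sequence the summits could not be searched for the factor's motif.

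Lists of very different length stood behind the pattern. The day 15 lists held 70105, 16519 and 11954 summits in replicates 1, 2 and 3, and the day 12 lists 6556, 33274 and 57694. Read counts were not part of the files, so sequencing depth is unknown, and a missing summit means that no peak was called. The peak names of day 15 replicates 2 and 3 and of day 12 replicate 1 carry a directory path, and those of the other libraries carry none. Day 15 replicates 2 and 3 also share a sample code in their peak names, and the name of day 15 replicate 3 does not contain the protein. The requirement of 3 of 3 day 15 libraries may therefore rest on fewer than 3 independent samples. Any spread between replicates given below may be technical.

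Most day 15-only regions sat directly at the ends of genes. In 179 of the 892 regions a gene end lay within the region itself, and in 183 more it lay at 1 to 100 bp. Over 100 and up to 250 bp away lay 131 regions, and beyond that up to 500 bp 67. The median distance to a gene end was 182 bp, against 24843 bp for the 138 day 12-only regions, 6561 bp for the 2701 regions with a summit in all 6 libraries and 19330 bp for all joined regions. Within 2 kb lay 72.8% of the day 15-only regions (95% exact binomial interval 69.7% to 75.7%), 15.2% of the day 12-only regions (9.67% to 22.3%), 39.1% of the regions of all 6 libraries (37.3% to 41.0%) and 20.3% of all regions. The intervals cover counting error only. Location was not used to choose the regions, but regions are not replicates of a day, so these shares are given without a test.

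**Figure D1:**
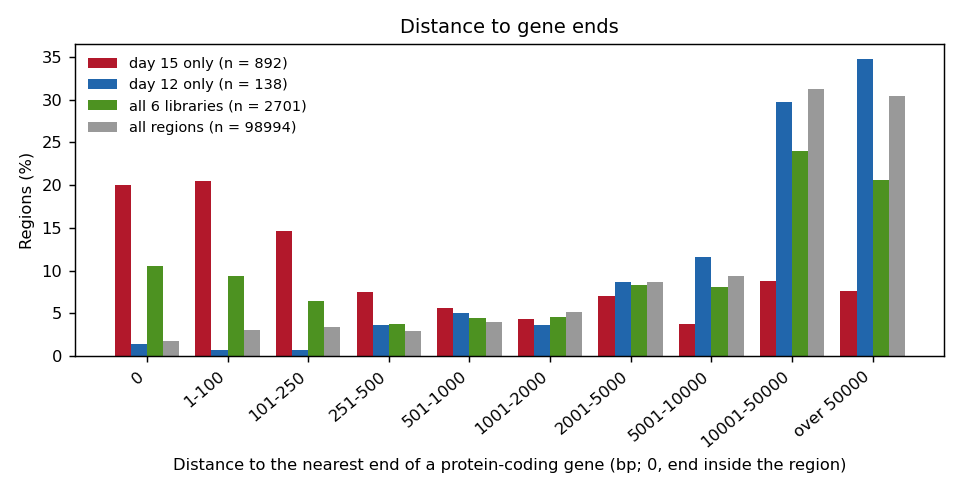
Share of regions (%) in each class of distance to the nearest end of a protein-coding gene (bp), for regions seen only on day 15, only on day 12, in all 6 libraries and for all joined regions. The day 15-only bars are highest from 0 to 250 bp, and the day 12-only bars above 10 kb.

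The near-gene-end regions often lay inside a gene, which need not be the one whose end was near. Of the 649, 439 (67.6%) had their midpoint inside a protein-coding gene, against 50.1% of the 1056 regions of all 6 libraries near gene ends. For 182 of the 649 (28.0%) a second protein-coding gene also had an end within 2 kb, against 26.3% of those of all 6 libraries. The annotation gives no strand, so a start of transcription cannot be told apart from the opposite end of a gene, and a shared promoter of neighbouring genes cannot be recognised. The summits of the 3 day 15 libraries spread over a median of 140 bp in the near-gene-end regions and 137 bp in the distal ones. In regions of all 6 libraries these spans were 74 bp near gene ends and 39 bp elsewhere. In regions of all 3 day 15 libraries and 1 or 2 day 12 libraries they were 125 bp near gene ends, close to the 140 bp of the day 15-only regions, and 84 bp elsewhere.

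The share near gene ends changed with the number and the identity of the day 12 libraries. Among regions with a summit in all 3 day 15 libraries it was 72.8% with 0 day 12 libraries, 52.5% with 1, 46.3% with 2 and 39.1% with 3. However, the 100 regions that were shared with day 12 replicate 1 alone lay near gene ends in 87.0% of cases. For regions shared with day 12 replicate 2 alone the share was 71.2% of 153, and with replicate 3 alone 48.2% of 1468. Regions seen in day 15 replicates 2 and 3 and no other library had 77.9% near gene ends (524 of 673). With replicates 1 and 2 this was 50.1% (649 of 1295) and with replicates 1 and 3 53.1% (287 of 540). Of these 6 shares the highest were those with day 12 replicate 1 alone and with day 15 replicates 2 and 3 alone, the 3 libraries whose peak names carry a path. The part of the path in the location of the regions was not tested.

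**Figure D2:**
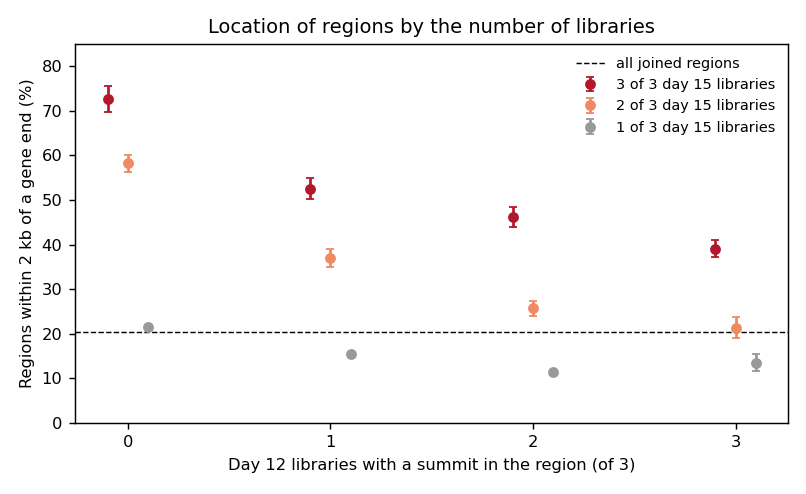
Share of joined regions within 2 kb of a gene end (%) by the number of day 12 libraries with a summit, for regions of 3, 2 or 1 day 15 libraries. Points are shares with 95% exact binomial intervals, and the dashed line is the share over all joined regions (20.3%). The share is 72.8% for the day 15-only regions and falls with each further day 12 library for regions of 3 or 2 day 15 libraries.

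Location was also compared over the whole lists. The share of summits within 2 kb of a gene end was 20.1%, 45.2% and 48.8% in day 15 replicates 1, 2 and 3, and 34.2%, 17.3% and 17.0% in day 12 replicates 1, 2 and 3. The groups overlapped, since day 12 replicate 1 lay above day 15 replicate 1. The means were 38.0% ± 15.6 on day 15 and 22.9% ± 9.86 on day 12 (SD, n = 3 each), a difference of 15.2 percentage points that was not significant (two-sided exact permutation test, p = 0.2, where 3 against 3 cannot go below 0.1). Within the libraries with a path the difference was 12.7 points, and within those without it 2.97 points. In the libraries with a path, 55.2% of the 4857 regions found in both day 15 libraries but not in day 12 were near gene ends, against 19.7% of the 1880 regions found in the day 12 library alone. The libraries without a path were day 15 replicate 1 and day 12 replicates 2 and 3, so the patterns there were unlike these. Of the 31103 regions found in that single day 15 library and in neither day 12 library, 21.7% were near gene ends. Of the 5166 regions found in both day 12 libraries but not in day 15, 13.3% were. The shares over all regions of each set were 42.7% with a path and 18.7% without, so the 21.7% lay close to that of its own set.

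Day 15-only regions had middling to low scores. The authors' score per summit is on the −log10 scale of a p- or q-value, and its percentile was taken within each list. The median percentile of the 892 regions was 42.2 in day 15 replicate 1, 49.3 in replicate 2 and 39.1 in replicate 3, against 95.9, 86.1 and 78.8 for the regions of all 6 libraries. A total of 114 (12.8%) lay above percentile 50 in each of the 3 lists, against 1970 (72.9%) of the regions of all 6 libraries. Scores below 5 made up 30.8%, 28.9% and 47.8% of the day 15-only regions in replicates 1, 2 and 3. Near-gene-end and distal regions differed in their order between lists. In day 15 replicate 1 the medians were percentile 41.2 near gene ends and 49.7 elsewhere, in replicate 2 they were 53.4 and 41.8, and in replicate 3 they were 41.3 and 34.3. These values come from the contrast that chose the regions and are a description.

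**Figure D3:**
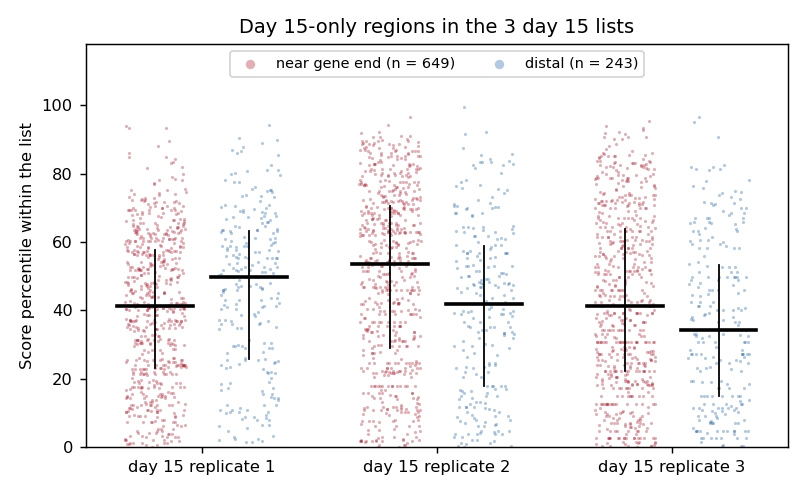
Score percentile within the list (0 to 100) of the day 15-only regions in each day 15 library, for 649 regions near gene ends and 243 distal ones. Each point is a region, thick lines are medians and thin lines run from the first to the third quartile. Near-gene-end medians lie below the distal one in replicate 1 (41.2 and 49.7) and above it in replicates 2 and 3.

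With lists of equal length, 3 of the 892 regions stayed. Each list was shortened to its 6556 highest-scoring summits, the length of the shortest list, which left 142 day 15-only regions among 17483 (0.812%). Of those 142, 28 were near gene ends and 114 distal. The 3 that belonged to the 892 comprised 2 near gene ends (those of TPD52L2 and CDC42) and 1 distal region (inside LOC110257828). The other 139 had day 12 summits that the shortening removed, in 1 day 12 library for 27 of the 142 regions and in 2 for 112. The loss came mainly from day 15 replicate 1, whose lowest score kept was 41.8. Above it stood 3 of the 649 near-gene-end regions and 1 of the 243 distal ones. In day 15 replicate 2, where the lowest score kept was 8.40, 269 near-gene-end and 57 distal regions stayed, and in replicate 3, at 6.05, 294 and 87. In the equal lists 19.7% of the day 15-only regions (13.5% to 27.2%) and 10.7% of the 420 day 12-only regions (7.92% to 14.1%) were near gene ends, against 32.8% of all 17483. The high share near gene ends among day 15-only regions was therefore not present in lists of equal length.

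Day 12 summits often lay close by. The nearest day 12 summit of any library was 4449 bp away in the median, 4216 bp for near-gene-end and 4668 bp for distal regions. It lay within 1 kb of 223 regions (25%) and within 5 kb of 461 (51.7%). For 204 of the regions within 1 kb, day 12 replicate 3 had such a summit, for 91 replicate 2 and for 15 replicate 1, the shortest list. At the limit of the joining rule, the region kept with the nearest day 12 summit, intergenic and nearest to DLG1, was 201 bp from it, and those next to THBS3 and TBK1 were 202 and 207 bp from theirs. Among the 1721 regions left out for summits in 1 day 12 library, the smallest margins were next to ZFP36 and MIER2. Their day 12 summits lay 198 and 195 bp from a day 15 summit. Regions left out for summits in more day 12 libraries were not ranked. Requiring no day 12 summit within 1 kb left 669 regions, 72.2% of them near gene ends, and within 5 kb 431 regions, 72.6% of them near gene ends. The location share hardly moved with this requirement.

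The 836 protein-coding genes with a day 15-only region within 2 kb of an end were 4.29% of 19484. Many of them had day 12 summits elsewhere. Within 5 kb of an end, 284 had a summit in 0 day 12 libraries, 185 in 1, 252 in 2 and 115 in all 3. Over all genes, 554 (2.84%) had a summit within 5 kb in each day 15 library and in no day 12 library, and 284 of those belonged to the 836. The genes were a little shorter than the others, with a median length of 18694 bp against 20698 bp for all protein-coding genes.

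Among the highest-ranked near-gene-end regions were those of CDC42 and WDR1, both of the actin list, and of the ribosomal gene RPS2. First by mean percentile (89.4) was the region at chr17:62733548-62733587, which overlaps an end of TPD52L2, a member of the tumour protein D52 family. Its scores were 57.9, 14.6 and 24.4 in day 15 replicates 1, 2 and 3, and the nearest summits of day 12 replicates 1, 2 and 3 lay 473, 626 and 571 bp away. All 3 day 12 libraries thus had a peak beside it, with scores of 12.4, 19.8 and 50.6. CDC42, which directs actin and cell polarity, had its region at chr6:80035174-80035270, inside the gene and 140 bp from an end. The scores were 53.7, 20.6 and 11.1 on day 15. The day 12 summits lay 809, 253 and 1504 bp away, with scores of 3.05, 4.20 and 22.3. These are both of the near-gene-end regions that stayed with equal lists, and day 12 summits were within 1 kb of each.

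WDR1, whose product helps cofilin take actin filaments apart, was different in this respect. Its region at chr8:6452523-6452710, 140 bp outside an end of the gene, scored 17.5, 18.9 and 18.7 in day 15 replicates 1, 2 and 3. The nearest day 12 summits were 131, 103 and 58.9 kb away in replicates 1, 2 and 3. No day 12 library had a summit within 5 kb of either end of this gene. CSTB encodes cystatin B, an inhibitor of lysosomal cysteine proteases. The region at chr13:206710769-206710796, 171 bp from an end of CSTB, scored 15.4, 19.1 and 17.5 on day 15, and day 12 summits lay 27.5, 24.7 and 20.5 kb away. TOGARAM1, which encodes a microtubule-binding protein of cilia, and KLHL28 both had an end within 2 kb of the region at chr1:175198225-175198322. It scored 12.2, 21.8 and 21.0 on day 15, with day 12 summits 135, 7.32 and 38.6 kb away. In replicate 1 none of the WDR1, CSTB and TOGARAM1 regions reached the 41.8 that equal lists required.

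The region at chr3:40000970-40001189 lay inside RPS2, a gene of the small ribosomal subunit, 188 bp from an end of RNF151 and within 2 kb of an end of NDUFB10, a subunit gene of respiratory complex I. It scored 12.7, 15.7 and 23.4 on day 15, with day 12 summits 4.85, 4.49 and 4.55 kb away. One region was thus counted for 3 genes. FBXL14, an F-box gene of ubiquitin ligases, had a region 671 bp from its end and inside WNT5B, with scores of 25.5, 17.8 and 10.4 on day 15. PHRF1, which encodes a RING finger protein, had one 211 bp from its end that scored 10.4, 21.8 and 16.9. The nearest day 12 summits were 38.6, 4.45 and 4.48 kb from the FBXL14 region and 49.5, 49.5 and 10.3 kb from that of PHRF1.

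TP53INP2, which encodes an autophagy protein, had its region 128 bp inside an end, at scores of 12.9, 16.4 and 16.1 on day 15 and with day 12 summits 155, 70.8 and 22.3 kb away. COG7, a subunit gene of the Golgi tethering complex, had one overlapping its end, at scores of 15.8, 13.3 and 16.5, with day 12 summits at 24.1, 9.98 and 8.68 kb. No day 12 library had a summit within 5 kb of TP53INP2, but 2 had one within 5 kb of an end of COG7. STAT6, which carries the signals of interleukins 4 and 13, had its region at chr5:22421775-22421833, inside the gene and 579 bp from an end. The scores were 23.6, 12.6 and 13 on day 15, and day 12 summits lay 35 kb away in replicate 1 but 334 and 365 bp away in replicates 2 and 3. STAT6 was among 5 of the 892 regions above percentile 75 in each day 15 list. The others were the regions of WDR1, TPD52L2, LOC110257828 and LOC110261483.

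The distal regions were fewer, and those of the highest rank had no common kind of neighbour. Of the 243, 146 (60.1%) lay inside a protein-coding gene and 97 (39.9%) between genes, against 55.3% and 44.7% of all 78884 distal regions. Their median distance to a gene end was 17607 bp, against 32662 bp for the 117 distal day 12-only regions, 27085 bp for the 1645 distal regions of all 6 libraries and 31939 bp for all distal regions. Over 50 kb from any gene end lay 68 of the 243 (28.0%), against 38.1% of all distal regions. Ends of long non-coding RNA genes lay within 2 kb of 18 (7.41%), against 3.09% of all distal regions, those of miRNA genes within 2 kb of 2 and those of tRNA genes of 1. The farthest distal region lay 567 kb from the nearest gene end, that of COL12A1.

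First among all 892 regions by mean percentile (96.8) was the distal region at chrX:49201694-49201697, inside LOC110257828 and 29.2 kb from its nearer end. It scored 60.5, 71.1 and 33.8 in day 15 replicates 1, 2 and 3, the highest score of any day 15-only region in each list. Summits of day 12 replicates 2 and 3 lay 344 and 255 bp from it, with scores of 12.3 and 17.5, and day 12 replicate 1 had none within 3399 kb. The distal region that stayed with equal lists therefore also had day 12 peaks beside it. Next came an intergenic region at chrX:124921039-124921316, 5.93 kb from RPL10, a gene of the large ribosomal subunit. Its scores were 13.9, 22.6 and 13.8 on day 15, and the day 12 summits lay 120, 35.5 and 5.70 kb away.

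The third distal region, at chr5:17399997-17400064, scored 10.7, 15.7 and 29.1 on day 15. Its nearest annotated gene of any type, 3024 bp away, was NR4A1, the gene of an immediate early nuclear receptor, which the pig annotation lists as a pseudogene. Day 12 summits lay 20.2, 0.765 and 0.720 kb from it. AZIN1, whose product raises polyamine synthesis by binding antizyme, was 8.26 kb from a region that scored 17.5, 10.7 and 11.3, with day 12 summits 26.2, 0.393 and 0.259 kb away. Both regions had close day 12 neighbours in replicates 2 and 3 and none in replicate 1. A region inside ODF2L, a centrosomal protein gene, and 16.7 kb from CLCA2 scored 9.15, 18.6 and 14.1, with day 12 summits 329, 47.8 and 38.5 kb away. SRRM3, a splicing regulator gene, held a region with scores of 21.9, 15.1 and 7.60. AKAIN1, the gene of an inhibitor of protein kinase A anchoring, held one with 24.5, 7.84 and 13.8, and GPR19, an orphan receptor gene, one with 12.7, 15.1 and 9.24. Day 12 summits lay 29.6, 20.1 and 20.1 kb from the SRRM3 region. From that of AKAIN1 they lay 40.9, 7.13 and 7.12 kb away. For the GPR19 region the distances were 1.95, 2.45 and 2.05 kb.

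Ribosomal and respiratory chain genes were described by their counts, with no test. A region within 2 kb of an end was found for 12 of 83 cytosolic ribosomal protein genes (14.5%), 8 of 74 mitochondrial ribosomal protein genes (10.8%), 4 of 47 complex I genes (8.51%) and 5 of 35 genes of complexes II to V (14.3%), against 4.29% of all genes. Such genes are bound often in any case. Of the genes that each day 15 list placed a summit within 5 kb of, 12.7% of all genes had a day 15-only region, against 18.5% of the cytosolic ribosomal, 17.0% of the mitochondrial ribosomal, 14.8% of the complex I and 25% of the complex II to V genes. RPS14 had its region 22 bp from an end, at scores of 8.51, 18.6 and 8.67 on day 15, with day 12 summits 269, 269 and 53.0 kb away. SDHD, which encodes a membrane anchor of succinate dehydrogenase, had one at chr9:39790382-39790458 with scores of 7.24, 19.7 and 22.5. The region lay inside TIMM8B, 105 bp from an end of that gene and 196 bp from one of SDHD. Its nearest day 12 summits were 251.3, 18.9 and 18.9 kb away. NDUFV1, the gene of the subunit that takes electrons from NADH, had one overlapping its end at scores of 4.43, 14.1 and 16. With equal lists, 0 of the 83 cytosolic ribosomal genes had such a region, against 34 of all 19484 protein-coding genes (0.175%). At that share the count of 0 does not set the ribosomal genes apart. For complex I the order turned without day 15 replicate 3, to 4.26% against 8.05% of all genes.

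Among other genes used in every cell the counts varied. No day 15-only region lay within 2 kb of any of 44 proteasome subunit, 47 translation initiation factor or 17 aminoacyl tRNA synthetase genes, although 22, 27 and 9 of them had a summit within 5 kb in each day 15 library. Leaving out 1 library gave 0 to 5 proteasome and 1 to 4 initiation factor genes with such a region. The share over all genes was 4.29%, and 4.89% to 8.41% with 1 library left out. Lists this short would hold few such genes at 4.29%. Of all genes with a summit within 5 kb in each day 15 library, however, 12.7% had a region, against 0 of the 22, 27 and 9 here. Whether the counts of 0 set these lists apart was not tested. Splicing factor genes had 4 of 77 (5.19%), chaperone genes 3 of 83 (3.61%), one of them HSPG2, which encodes the matrix protein perlecan and no chaperone, and autophagy and V-ATPase genes 1 of 52 (1.92%), that of ATG16L1. Genes of the mediator and of RNA polymerase II had 11 of 81 (13.6%), ubiquitin genes 15 of 170 (8.82%), RAB genes 6 of 68 (8.82%), vesicle transport genes 13 of 167 (7.78%), ZNF genes 21 of 254 (8.27%), DNA repair genes 8 of 86 (9.30%) and solute carriers 11 of 350 (3.14%). MED22, a mediator subunit gene, shared its region with RPL7A, at scores of 9.68, 16.7 and 7.78 on day 15. Cell cycle genes had 6 of 101 (5.94%), among them RB1, the retinoblastoma tumour suppressor, at scores of 6.51, 10.1 and 12.5 and with day 12 summits 412, 25.7 and 25.7 kb away. That list was drawn by symbol and includes CDC42 and CDC42EP1, which act on the cytoskeleton.

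**Figure D4:**
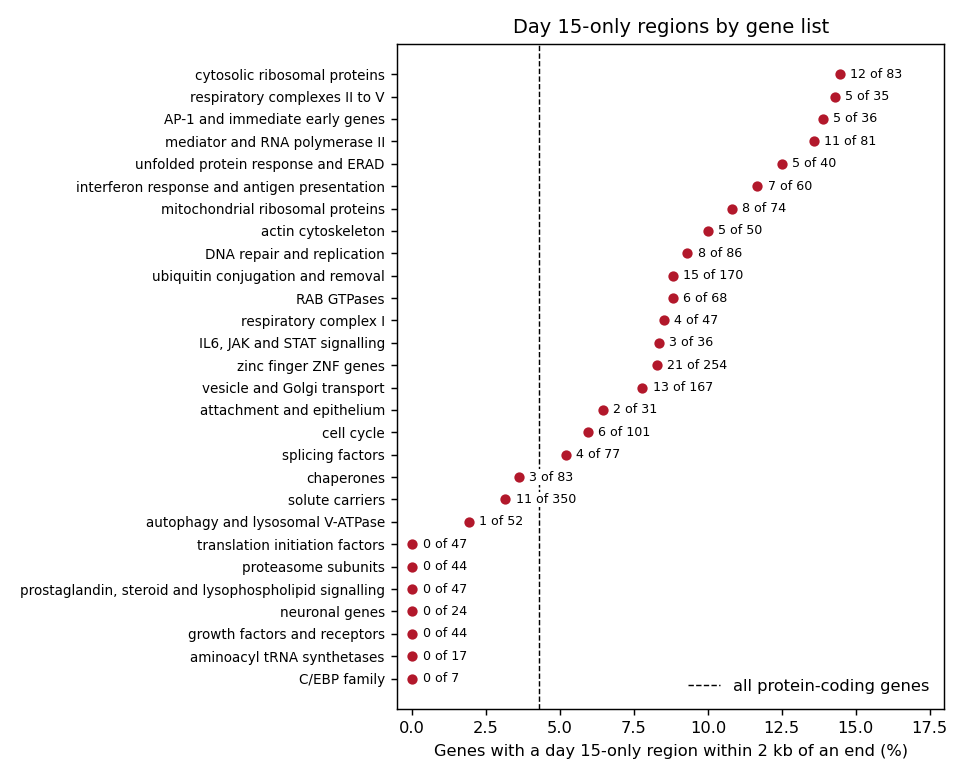
Share of each gene list with a day 15-only region within 2 kb of a gene end (%), with the number of genes beside each point. The dashed line is the share over all protein-coding genes (4.29%). Cytosolic ribosomal, complex II to V, immediate early and mediator genes stand highest, and 7 lists have none.

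Interferon and antigen presentation genes had a day 15-only region in 7 of 60 cases (11.7%), against 4.29% of all genes. Of the 36 with a summit within 5 kb in each day 15 library this was 19.4%, against 12.7% of all such genes. No test was made of these counts. The 7 were B2M, TRIM25, MX1, PML, GBP1, TAPBP and ADAR. Within 5 kb of an end, TRIM25, PML and TAPBP had a summit in 3 day 12 libraries and B2M and GBP1 in 2. MX1 and ADAR had one in 0. MX1, an antiviral GTPase gene, had its region at chr13:204842896-204842956, 93 bp from an end, with scores of 3.96, 34.4 and 6.2 in day 15 replicates 1, 2 and 3. The score in replicate 2 was the highest of any near-gene-end region in that list, and that in replicate 1 was at percentile 18.7 of its list. Day 12 summits lay 55.5, 55.4 and 43.8 kb away. B2M, the light chain gene of MHC class I, had a region 264 bp from an end at scores of 10.2, 8.41 and 14.6, with day 12 summits 282, 1.86 and 8.10 kb away. A second day 15-only region, distal, was nearest to B2M at 5.60 kb. TRIM25, the gene of a ubiquitin ligase that aids RNA sensing, had one at scores of 7.41, 19.2 and 5.03, and all 3 day 12 libraries had a summit between 1502 and 1530 bp away. Those day 12 summits scored 11.5, 18.4 and 31.9 in replicates 1, 2 and 3.

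Among genes of interleukin 6, JAK and STAT signalling 3 of 36 (8.33%) had a day 15-only region, against 4.29% of all genes. Besides STAT6 these were PIM1 and TYK2. Of the 21 list genes with a summit within 5 kb in each day 15 library, 14.3% had a region, against 12.7% of all such genes. Without day 15 replicate 3 the order turned, to 2 of 36 (5.56%) against 8.05% of all genes. TYK2, a Janus kinase gene used by interferon receptors, had its region overlapping an end, with scores of 4.79, 5.43 and 4.27 on day 15 and no day 12 summit within 29.6 kb. All 3 scores were low. PIM1, a kinase gene induced by STAT factors, scored 2.0, 20.2 and 8.14, and day 12 summits lay 85 kb, 557 bp and 1615 bp away. Unfolded protein response and ERAD genes had 5 of 40 (12.5%), and 15.2% of the 33 with a summit within 5 kb in each day 15 library. HYOU1, an endoplasmic reticulum chaperone gene, had its region 27 bp from an end at scores of 9.50, 8.06 and 14.8, with day 12 summits 8.36, 8.36 and 8.22 kb away. PDIA3, a disulphide isomerase gene, had one at scores of 14.9, 7.84 and 14.6 with a summit of day 12 replicate 3 at 0.718 kb. That region overlapped an end of CATSPER2 and lay 102 bp from one of PDIA3.

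Immediate early and AP-1 genes had day 15-only regions in 5 of 36 cases (13.9%), against 4.29% of all genes. A summit within 5 kb in each day 15 library was found for 31 of the 36. Of those 31, 16.1% had a region, against 12.7% of all such genes. NR4A3, an orphan nuclear receptor gene, had its region 88 bp from an end, with scores of 8.79, 12.5 and 20.9 on day 15 and day 12 summits 1.40, 0.663 and 2.17 kb away. KLF2, a Krüppel-like factor gene, had one 17 bp from an end at scores of 10.1, 11.1 and 9.95, with day 12 summits at 3.36, 3.35 and 3.37 kb. Both genes had a summit within 5 kb in all 3 day 12 libraries. The nearest day 12 summits scored 2.39, 10.7 and 35.7 for NR4A3 and 8.10, 36.6 and 74.9 for KLF2. FOSL1 and MAFG, which encode bZIP partners of the AP-1 group, and DUSP4, a MAP kinase phosphatase gene, were the other members. The FOSL1 region lay inside CCDC85B, 63 bp from an end of that gene and 1456 bp from one of FOSL1. Only DUSP4 of the 5 had no day 12 summit within 5 kb of its ends.

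Genes of the actin cytoskeleton had 5 of 50 (10.0%), against 4.29% of all genes: CDC42, WDR1, TPM1, CAPZA2 and EZR. Of the 32 with a summit within 5 kb in each day 15 library 15.6% had a region, against 12.7% of all such genes. TPM1, a tropomyosin gene, had its region 46 bp from an end at scores of 7.52, 9.41 and 4.99 on day 15, with day 12 summits 184, 12.0 and 4.26 kb away. EZR, which encodes the microvillus protein ezrin, had one at scores of 12.7, 2.13 and 3.31. Attachment and epithelial genes had 2 of 31 (6.45%), and 13.3% of the 15 with a summit within 5 kb in each day 15 library. MUC1, the surface mucin of the uterine epithelium, had 2 regions within 2 kb, at chr4:94624547-94624707 and chr4:94625835-94626089, with THBS3 next to both. The first scored 8.74, 4.84 and 6.06 and lay 202 bp from a summit of day 12 replicate 3. The second scored 5.98, 7.12 and 1.98, and its nearest day 12 summit was 926 bp away. CLDN4, a tight junction gene, had a weak one at scores of 3.29, 5.48 and 1.48. Summits of day 12 replicates 1, 2 and 3 lay 1095, 1109 and 939 bp from it, with scores of 24.3, 25.8 and 4.04.

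Several short lists had no gene with a day 15-only region, against 4.29% of all genes. There was none within 2 kb of any of 47 prostaglandin, steroid and lysophospholipid genes, 44 growth factor and receptor genes, 24 neuronal genes or the 7 C/EBP family genes. Of these, 12, 14, 1 and 4 had a summit within 5 kb in each day 15 library. The counts were not 0 in every setting: without day 15 replicate 3, 6 of the 44 growth factor genes (13.6%) and 1 neuronal gene had such a region, against 8.05% of all genes. Without day 15 replicate 2, 3 of the 47 prostaglandin, steroid and lysophospholipid genes had one (6.38%), against 5.75% of all genes. Without day 12 replicate 3, 1 of the 7 C/EBP family genes had one, against 8.41% of all genes. All list counts are descriptions. Neighbouring genes in a list can share a region.

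Leaving out a library relaxes the rule, but summits were joined anew, so a region could also be lost. All 892 regions stayed when a day 12 library was left out. Without day 15 replicates 1, 2 and 3, 837, 816 and 803 of them stayed. The number of day 15-only regions was 1551, 1379 and 2137 without day 15 replicates 1, 2 and 3. It was 996, 1045 and 2280 without day 12 replicates 1, 2 and 3. The shares near gene ends were then 75%, 64.9% and 59.6%, and 74.3%, 72.2% and 57.5%. Day 12 replicate 3, the longest day 12 list, thus removed most candidates, and the share near gene ends stayed above the 20.3% of all regions in each of these settings. The counts of the reverse pattern were 1488, 151 and 157, and 4844, 164 and 182. Without day 12 replicate 1 the reverse pattern was the more frequent one, as it was with equal lists and, at 522 day 15-only and 2225 day 12-only regions, with equal lists and day 12 replicate 1 not used. Joining within 100 or 500 bp gave 578 and 1066 regions, with 72.0% and 74.1% near gene ends.

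**Figure D5:**
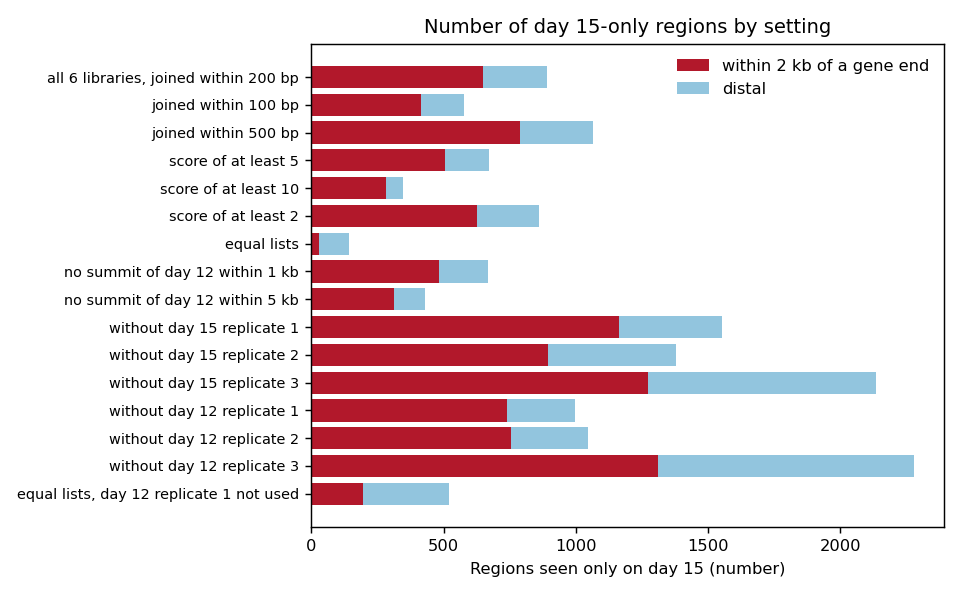
Number of regions seen only on day 15, split into those within 2 kb of a gene end and distal ones, under each setting except the counts within libraries with or without a path. Bars run from 142 regions with equal lists to 2280 without day 12 replicate 3, and distal regions outnumber near-gene-end ones in the settings with equal lists.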

How the data were processed

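The submitters' processing notes name the build susScr11 and, with no order or settings, MACS2 2.1.2, Bowtie2 2.3.5.1 and SAMtools 1.9. How peaks were thresholded, and whether input was used, is not given in the sources used here. The authors deposited 1 list of summits, 1 bp wide, for each of 6 libraries. Scores, as deposited, are −log10 values of either a p-value or a q-value, and which is not stated. They served to rank and filter within 1 list at a time. Summits on chromosomes 1 to 18 and X were used, 196102 of 198341. Depth is unknown, so no interval or limit that needs it is given, and binomial intervals of shares cover counting error only.

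Coordinates count from 1. Genes came from RefSeq on Sscrofa11.1, the assembly that susScr11 names, with start and end but no strand, exons or sequence (19484 protein-coding genes of 28073 on these chromosomes). Summits were joined and counted with Python 3.11.15, pandas 2.3.3, numpy 2.4.6 and scipy 1.17.1, and the joining was tested on simulated lists. The test was an exact permutation over libraries, with exact sign flips by replicate number as its alternative. The planned search for sequence motifs in promoters was not run. Regions were named by rank: the first 12 near gene ends with a gene symbol other than LOC, the first 8 distal ones and those kept with equal lists. One of the first 12 is not reported here. From each of 28 gene lists (2211 entries, 10 further symbols unmatched) up to 3 genes with a region were candidates for naming. Outside that rule, MAFG, DUSP4, EZR, CAPZA2, PML, GBP1, TAPBP, ADAR, RPL7A, CDC42EP1, TIMM8B, CATSPER2 and CCDC85B, and the regions of DLG1, THBS3, TBK1, ZFP36, MIER2, COL12A1, GBP2, ZBTB22, DAXX, ARID1B and LOC110261483, were named after their values were seen. The regions, gene lists and tests were chosen with earlier results of these data known. Alternatives were other joining distances, score minimums, equal lists, a wider zone without day 12 summits, other gene windows, each library left out and, chosen after seeing the data, a score of at least 2, counts within libraries with or without a path in the peak names, and equal lists without day 12 replicate 1.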

Additional observations from a re-analysis of the deposited data

How the results depend on the processing

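The number of day 15-only regions, 892, was 578 when summits were joined within 100 bp, 347 with a score of at least 10, 142 with equal lists and 431 with no day 12 summit within 5 kb. It was 522 with equal lists of 11954 summits and day 12 replicate 1 not used, 4857 within the libraries whose peak names carry a path and 31103 within the others. The 4857 needed a summit in day 15 replicates 2 and 3, and the 31103 in day 15 replicate 1 only. Leaving out 1 library gave 996 to 2280. A library left out relaxes the rule, so higher counts can follow from the setting alone. Of the 892, 451 stayed with joining within 100 bp, 749 within 500 bp, 797 with a score of at least 2, 266 with at least 5, 37 with at least 10 and 3 with equal lists. The share near gene ends, 72.8%, was 81.0% with a score of at least 10, 19.7% with equal lists, 37.0% with equal lists and day 12 replicate 1 not used, 55.2% and 21.7% within the libraries with and without a path, 68.4% with gene ends within 1 kb and 79.8% within 5 kb. Leaving out 1 library gave 57.5% to 75%. The number of genes with a summit only on day 15, 554, was 101 with a window of 50 kb and 57 with equal lists, and 624 to 1572 with 1 library left out. The reverse count was 57 with equal lists. Beyond the equal lists, whose minimum score in day 15 replicate 1 removed nearly all regions, the cause was not tested.

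The difference between days in the share of summits near gene ends was positive in every setting run, from 2.97 points within libraries without a path to 24.1 points when day 15 replicate 1 was left out. The lowest value with 1 library left out was 9.79 points. With replicate numbers as a block the difference of 15.2 points had an exact sign-flip p of 0.5, where 3 pairs cannot go below 0.25. Same-numbered libraries correlated at 0.0632, -0.0521 and 0.13 in their deviations from the day means, and differently numbered ones at -0.149 to 0.105. Such deviations are tied to each other within a day and the lists differ in length. They therefore cannot decide whether the numbers pair the libraries. Unknown depth limits every absence of a summit.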

Other observations

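Day 15-only regions were spread over all chromosomes analysed. They were most frequent on chromosome 12, with 17.2 per 1000 joined regions, and on chromosomes 2 (14.7) and 6 (13), and least frequent on chromosome 11 (4.39). Per 1000 protein-coding genes, near-gene-end regions numbered 42.8 on chromosome 12, 40.5 on chromosome 2 and 14.4 on X. Neighbouring regions were rare: 6 pairs lay within 5 kb of each other and 80 within 50 kb. One stretch of chromosome 7 held 3 of them around ZBTB22 and DAXX, at gaps of 3840 and 4675 bp. ARID1B, which encodes a chromatin remodelling subunit, had a pair 1043 bp apart, and MUC1 and THBS3 one 1128 bp apart. The lowest mean percentile (4.90) belonged to an intergenic region nearest to GBP2, with scores of 1.86, 1.65 and 2.99 in day 15 replicates 1, 2 and 3. No explanation of these values was tested.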
